A study of Rattus norvegicus with 78 samples.

Results

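The genes described here are the chemokines and the chemokine receptors of the rat as measured in 78 sperm RNA samples on a whole-transcript array. They were taken by name: every gene symbol of the array's annotation that starts with Ccl, Cxcl, Xcl, Cx3cl, Ccr, Cxcr, Xcr or Cx3cr followed by a digit was kept, from probe sets with 1 symbol. The rule found 50 genes, 33 ligands and 17 receptors, among the 14506 genes with 1 symbol, and each of the 50 had 1 probe set. The study asked whether RNA carried by sperm records damage to the testis by 1,2-dibromo-3-chloropropane (DBCP), a pesticide that is toxic to male germ cells.

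All animals were Fischer 344 rats, an inbred strain, and all RNA came from sperm of the cauda epididymis, where mature sperm are stored, although the title of the series speaks of testis. A group of 20 rats received corn oil, the vehicle, and another group of 20 received DBCP at 5 mg per kg per day. Both groups were sampled at the end of 3 months of exposure. Another 19 corn oil rats and 19 DBCP rats had the same exposure and then a recovery period without it, and the sources used here do not give its length or the ages of the rats. The labels call the rats of a group biological replicates. Sperm were released by puncturing the tissue, pelleted, treated with an ammonium chloride lysis buffer that breaks red cells and washed, with no sorting, and the larger RNA of each pellet was measured.

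Chemokines are small secreted proteins that attract leukocytes by binding receptors coupled to G proteins on the surface of these cells. Ligands of the CC and CXC families are made by activated leukocytes, stroma and epithelium, and each receptor marks the leukocytes that can answer. In the epididymis, macrophages and dendritic cells lie in and under the epithelium and T cells lie among its cells, so that chemokine transcripts in a sperm pellet can come from leukocytes as well as from other cells.

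Values are the log2 intensities deposited by the authors, and a difference of 1 is a doubling. They ranged from 2.54 to 14.69 and the median of an array lay between 6.55 and 6.75. The files carry no detection call, so a low value cannot be told apart from background, and levels are compared between groups for 1 gene and never between genes. The 12 measured genes of 12 listed for sperm and late spermatids, among them the protamines, had a mean level between 10.00 and 12.27 in every array. Markers of all leukocytes, such as Ptprc (CD45), were measured for 8 of 8 listed genes, with a mean level between 8.22 and 9.95 in every array, beside the label of sperm. In 6 of the 78 arrays the limma array weight was under 0.5: 3 of DBCP at the end of exposure, 2 of DBCP after recovery and 1 of corn oil after recovery.

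Recovery was set against the end of exposure first in the corn oil rats, which were never exposed to the toxicant. Among the 50 genes, 6 rose and 8 fell (limma, Benjamini-Hochberg adjusted p under 0.05 over 29214 probe sets). Over all probe sets, 11.5% were higher and 12.8% lower, so the share of chemokine genes called was near the background in each direction. The median difference of the 50 genes was -0.046, against -0.038 for all probe sets. Of the 6 rises, those of Ccl5, Ccr2, Cx3cr1 and Xcl1 were by 0.31 to 0.60 and those of Ccl4 and Cxcl16 by 0.18 and 0.16, and the 8 falls lay between -0.12 and -0.23. After centring each array on its median, 8 of the 50 rose and 3 fell, and over all probe sets 3850 were higher and 2218 lower, against 3370 and 3738 with the values as deposited.

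In the DBCP rats, 9 of the 50 genes rose and 2 fell over the same interval, with 7.28% of all probe sets higher and 6.19% lower. The median difference of the 50 genes was 0.0081, against 0.0073 over all probe sets. Without the 6 arrays of low weight, 6 rose and 2 fell in DBCP rats, and 6 rose and 8 fell in corn oil rats. Ccl5, Ccr2, Cx3cr1, Xcl1 and Ccl4 rose in both treatments, which is 5 of the 6 that rose with corn oil and 5 of the 9 that rose with DBCP. Ccr4 fell in both, as 1 of 8 with corn oil and 1 of 2 with DBCP. The overlap was counted for the 50 genes only. Whether it is larger than that over all probe sets was not tested. The corn oil and DBCP comparisons share no arrays, but the same fit to all arrays supplied the variance for both. Recovery, age and any difference in processing between the collection times cannot be told apart in this design.

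**Figure D1:**
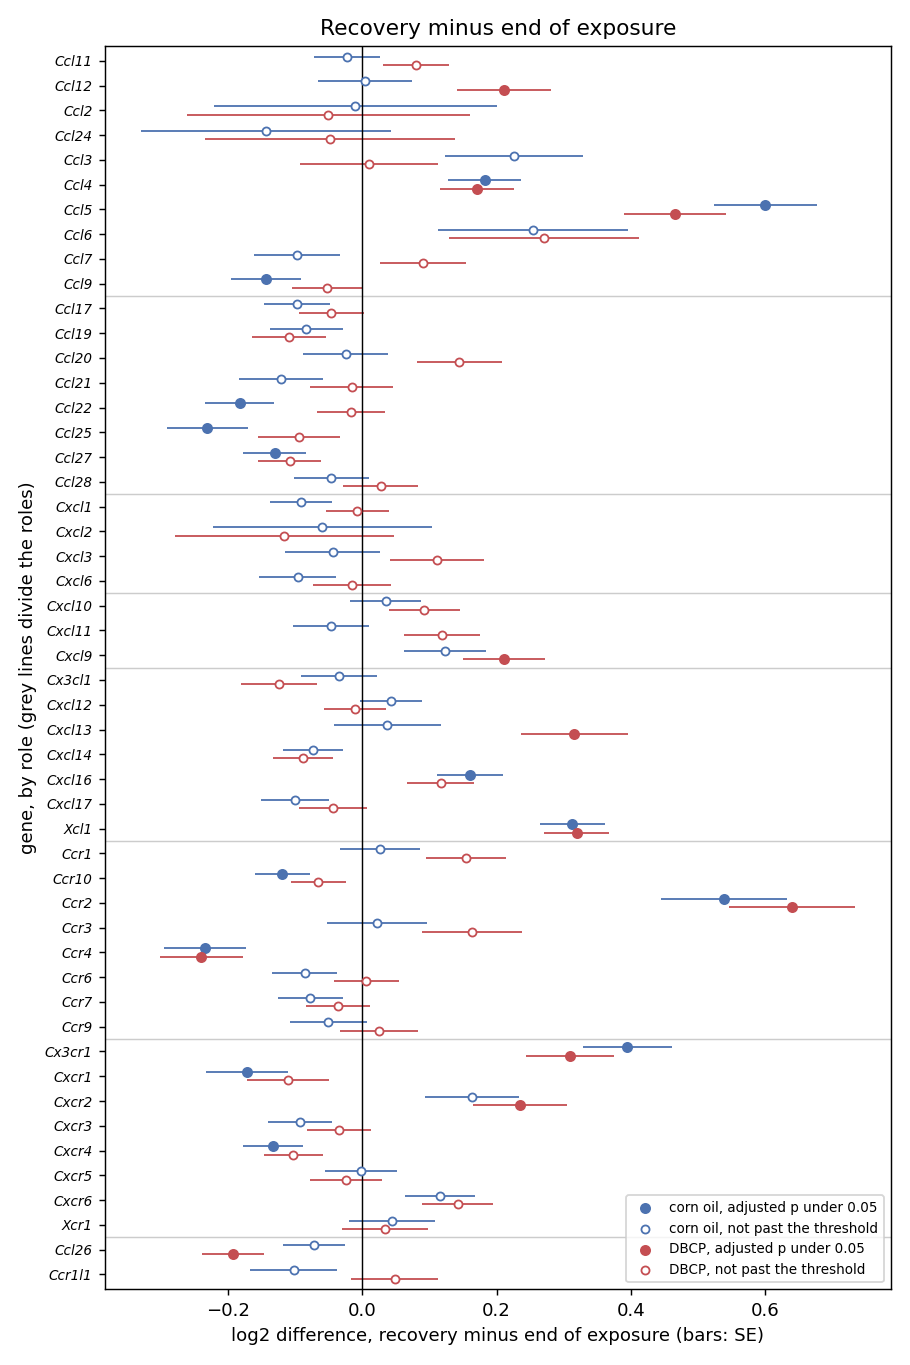
Difference in log2 value between recovery and the end of exposure for each of the 50 genes (x axis, bars are the SE of the limma fit), with corn oil in blue and DBCP in red and genes ordered by role on the y axis. Filled points passed the threshold: 6 rose and 8 fell with corn oil, 9 rose and 2 fell with DBCP, and the filled points farthest to the right in both treatments are Ccl5 and Ccr2.

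Among the 10 inflammatory CC ligands, 2 rose and 1 fell with corn oil and 3 rose with DBCP. Ccl5 (RANTES), which T cells and natural killer cells release, had lowest, median and highest values of 8.95, 9.38 and 9.77 in corn oil rats at the end of exposure and 9.24, 9.96 and 10.56 after recovery. In DBCP rats the corresponding values were 8.89, 9.37 and 9.81 at the end and 9.46, 9.82 and 10.31 after recovery. The groups overlapped in both treatments, but 18 of 19 corn oil arrays and 19 of 19 DBCP arrays after recovery lay above the mean of the earlier group. Ccl5 rose by 0.60 ± 0.08 (SE), or 1.52-fold, with corn oil (limma adjusted p = 3.96e-08) and by 0.47 ± 0.08, or 1.38-fold, with DBCP (limma adjusted p = 5.35e-06).

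Ccl4 (MIP-1 beta), made by activated lymphocytes and macrophages, moved less. Its lowest, median and highest values were 7.05, 7.24 and 7.61 at the end of exposure and 6.97, 7.41 and 7.81 after recovery with corn oil, and 7.01, 7.20 and 7.51 against 7.12, 7.38 and 7.70 with DBCP. The groups overlapped widely, and the array with the lowest value of the corn oil rats was itself one taken after recovery. Ccl4 rose by 0.18 ± 0.05 with corn oil (limma adjusted p = 0.0107) and by 0.17 ± 0.05 with DBCP (limma adjusted p = 0.0245). Ccl12, a rodent ligand of Ccr2 that attracts monocytes, rose by 0.21 ± 0.07 with DBCP (limma adjusted p = 0.032), from a median of 5.75 to 5.99, and had corn oil medians of 5.72 and 5.76. Ccl9, a rodent ligand of Ccr1, fell by 0.14 ± 0.05 with corn oil (limma adjusted p = 0.0361), from a median of 7.03 to 6.87. The other 6 inflammatory ligands, Ccl2, Ccl3, Ccl6, Ccl7, Ccl11 and Ccl24, passed in neither treatment.

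The 8 homeostatic, mucosal and skin CC ligands had falls and no rise past the threshold. With corn oil all 8 were below 0 as deposited and 7 were after centring or quantile normalization. Of all probe sets 61.6% were below 0 as deposited, 52.5% after centring and 56.8% under quantile normalization. The median difference of the 8 was -0.11 as deposited, and 3 passed as lower, against 12.8% of all probe sets. With DBCP 6 were below 0, against 47.4% of all probe sets, and none passed by limma. At an unadjusted p under 0.05, 1 was higher and 2 lower with DBCP (15.2% and 11.8% of all probe sets). Ccl25, which draws Ccr9-bearing lymphocytes to thymus and gut, had values from 6.19 to 6.89 at the end of exposure and from 6.00 to 6.56 after recovery with corn oil, and fell by 0.23 ± 0.06 (limma adjusted p = 0.00378). Ccl22, a macrophage and dendritic cell ligand of Ccr4, fell by 0.18 ± 0.05 with corn oil (limma adjusted p = 0.00689), from a median of 7.18 to 7.04. The value of Ccl22 depended on which rats were used: it fell by 0.34 in replicate numbers 1 to 10 alone (limma adjusted p = 5.23e-04), and in numbers 11 to 20 alone the difference was -0.015 (limma adjusted p = 0.917). Ccl27, a skin ligand of Ccr10, fell by 0.13 ± 0.05 with corn oil (limma adjusted p = 0.0355), from a median of 7.19 to 7.02, and had a difference of -0.0825 in numbers 11 to 20 alone (limma adjusted p = 0.511). After centring or quantile normalization, Ccl27 and Ccl9 no longer passed, while Ccl25 and Ccl22 did. The remaining homeostatic ligands, Ccl17, Ccl19, Ccl20, Ccl21 and Ccl28, passed in neither treatment.

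None of the 4 neutrophil-attracting CXC ligands, Cxcl1, Cxcl2, Cxcl3 and Cxcl6, passed in either treatment by limma, and 0 reached an unadjusted p under 0.05, which with corn oil 15.6% of all probe sets did as higher and 22.3% as lower. Among the 3 ligands induced by interferon gamma, Cxcl9, which acts on Cxcr3 of activated T cells, rose by 0.21 ± 0.06 with DBCP (limma adjusted p = 0.0118). Its lowest, median and highest values with DBCP were 6.54, 6.78 and 7.04 at the end of exposure and 6.60, 6.99 and 7.40 after recovery. With corn oil its median was 6.85 at the end and 6.92 after recovery, without passing. Cxcl10 and Cxcl11 passed in neither treatment.

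Among the 7 other ligands, Xcl1 rose in both treatments and Cxcl16 and Cxcl13 in one each. Xcl1 (lymphotactin), a product of natural killer cells and activated CD8 T cells that attracts Xcr1-bearing dendritic cells, had lowest, median and highest values of 7.78, 8.11 and 8.31 at the end of exposure and 8.07, 8.38 and 8.80 after recovery with corn oil. With DBCP they were 7.86, 8.05 and 8.26 at the end and 8.14, 8.35 and 8.75 after recovery. The SD within a group lay between 0.12 and 0.17, and the groups overlapped in part. Xcl1 rose by 0.31 ± 0.05 with corn oil (limma adjusted p = 2.9e-06) and by 0.32 ± 0.05 with DBCP (limma adjusted p = 8.88e-07), and 18 of 19 and 19 of 19 arrays after recovery were above the earlier mean.

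Cxcl16, a membrane-bound ligand of Cxcr6, rose by 0.16 ± 0.05 with corn oil (limma adjusted p = 0.0129), from a median of 7.93 to 8.07. It no longer passed under quantile normalization (0.12, limma adjusted p = 0.0534) or in replicate numbers 1 to 10 or 11 to 20 alone (0.15 and 0.17, limma adjusted p = 0.188 and 0.137). Cxcl13, which attracts B cells through Cxcr5, rose by 0.32 ± 0.08 with DBCP (limma adjusted p = 0.00337), from lowest, median and highest values of 5.68, 6.10 and 6.31 to 5.99, 6.38 and 7.68. The highest of these, in replicate 10, stood more than 1 unit above the group median. With corn oil the median of Cxcl13 was 6.24 at the end and 6.30 after recovery, without passing. Cxcl12, Cxcl14, Cxcl17 and Cx3cl1 passed in neither treatment.

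Among the 8 CC receptors, Ccr2 rose and Ccr4 fell in both treatments. Ccr2, the receptor by which inflammatory monocytes answer Ccl2, had lowest, median and highest values of 6.60, 7.69 and 7.93 at the end of exposure and 7.67, 8.14 and 8.76 after recovery with corn oil. With DBCP they were 7.03, 7.47 and 8.12 at the end and 7.72, 8.12 and 9.06 after recovery. In both treatments every array after recovery lay above the mean of the earlier group, although the ranges overlapped. Ccr2 rose by 0.54 ± 0.09, or 1.45-fold, with corn oil (limma adjusted p = 2.26e-05) and by 0.64 ± 0.09, or 1.56-fold, with DBCP (limma adjusted p = 5.53e-07).

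Ccr4, the receptor for Ccl17 and Ccl22 on type 2 helper and regulatory T cells, went the other way. It had lowest, median and highest values of 6.60, 6.89 and 7.25 at the end and 6.34, 6.70 and 7.13 after recovery with corn oil, and of 6.61, 6.85 and 7.22 against 6.13, 6.67 and 7.02 with DBCP. Ccr4 fell by 0.23 ± 0.06 with corn oil (limma adjusted p = 0.00396) and by 0.24 ± 0.06 with DBCP (limma adjusted p = 0.00415), and 17 of 19 and 15 of 19 arrays after recovery were below the earlier mean. Ccr10, the receptor for Ccl27 and Ccl28, fell by 0.12 ± 0.04 with corn oil (limma adjusted p = 0.0254), from a median of 7.41 to 7.31, and no longer passed after centring. Ccr1, Ccr3, Ccr6, Ccr7 and Ccr9 passed in neither treatment.

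Among the 8 receptors of the other families, Cx3cr1, the receptor for fractalkine on monocytes and natural killer cells, rose in both treatments. Its lowest, median and highest values were 7.62, 8.16 and 8.58 at the end and 8.06, 8.56 and 9.02 after recovery with corn oil, and 7.73, 8.06 and 8.43 against 8.01, 8.36 and 8.70 with DBCP. Cx3cr1 rose by 0.39 ± 0.07, or 1.32-fold, with corn oil (limma adjusted p = 1.24e-05) and by 0.31 ± 0.07, or 1.24-fold, with DBCP (limma adjusted p = 4.57e-04). In each treatment 18 of 19 arrays after recovery lay above the mean of the earlier group.

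Cxcr2, the main receptor by which neutrophils answer CXC ligands, rose by 0.24 ± 0.07 with DBCP (limma adjusted p = 0.0153), from a median of 6.02 to 6.23, and its corn oil medians were 6.08 and 6.20. Cxcr1, a related neutrophil receptor, fell by 0.17 ± 0.06 with corn oil (limma adjusted p = 0.0314), from a median of 7.56 to 7.37, and differed by -0.097 in replicate numbers 11 to 20 alone (limma adjusted p = 0.52). Cxcr4, the receptor for Cxcl12 on most leukocytes, fell by 0.13 ± 0.04 with corn oil (limma adjusted p = 0.0224), from a median of 7.25 to 7.12. Neither Cxcr1 nor Cxcr4 passed after centring. Cxcr3, Cxcr5, Cxcr6 and Xcr1 passed in neither treatment. Of the 2 genes outside the role lists, Ccl26, an eotaxin, fell by 0.19 ± 0.05 with DBCP (limma adjusted p = 0.00202), from a median of 6.71 to 6.54, and Ccr1l1, a receptor gene related to Ccr1, did not pass.

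**Figure D2:**
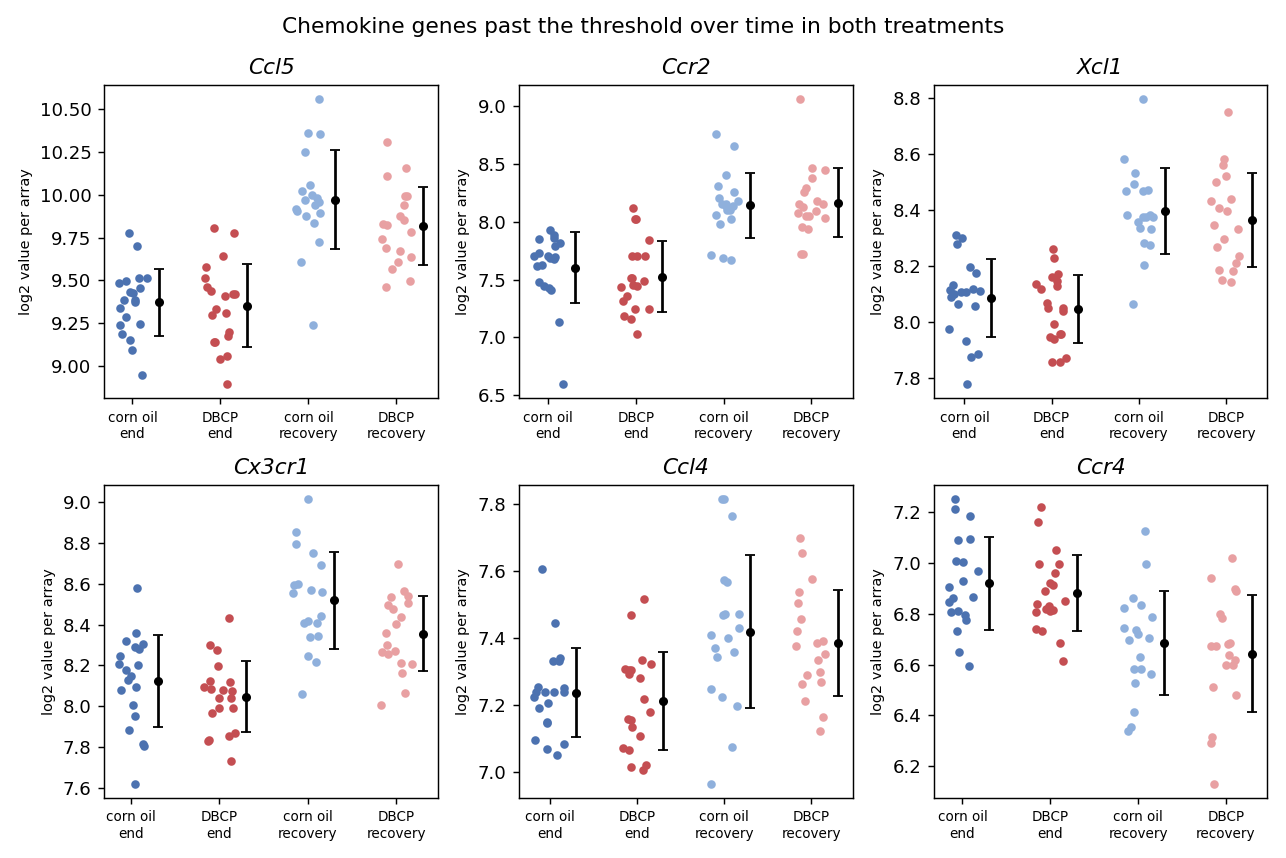
Log2 values (y axis) of the 6 genes that passed over time in both treatments, 1 point per array and 4 groups on the x axis, with the mean and SD in black. Ccl5, Ccr2, Xcl1, Cx3cr1 and Ccl4 were higher after recovery with corn oil and with DBCP and Ccr4 was lower, and the groups overlapped in each panel.

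Values of leukocyte markers moved with these rises. With corn oil 7 of the 8 markers of all leukocytes rose and none fell, and with DBCP 6 rose and none fell. Of all probe sets, 11.5% rose and 12.8% fell with corn oil, and 7.28% and 6.19% with DBCP. Their mean level per array ran from 8.34 to 9.23 at the end and from 8.82 to 9.95 after recovery with corn oil, and from 8.22 to 9.28 against 8.74 to 9.64 with DBCP. Of the 12 T and natural killer cell markers, 8 rose and 1, Cd3d, fell with corn oil and 10 rose with DBCP. Their level ran from 7.05 to 7.40 at the end and from 7.20 to 7.89 after recovery with corn oil, and from 6.98 to 7.42 against 7.30 to 7.76 with DBCP. The cytotoxic genes Prf1 and Klrd1 rose by 0.63 and 0.64 with corn oil and by 0.47 and 0.64 with DBCP. The median difference of the 12 markers was 0.24 with corn oil and 0.26 with DBCP.

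Of the 11 macrophage and dendritic cell markers measured of 13 listed, 3 rose with corn oil and 5 with DBCP. Of the 7 neutrophil markers, 1 rose and 1 fell in each treatment, and of the 2 B cell markers measured of 4 listed 1 fell with corn oil. Sperm markers moved down: 5 of 12 fell with corn oil and 10 of 12 with DBCP. Their level ran from 10.00 to 11.52 at the end and from 10.02 to 11.01 after recovery with corn oil, and from 10.45 to 12.27 against 10.16 to 11.26 with DBCP. In bulk RNA, more leukocytes in the pellet and more RNA per leukocyte cannot be told apart. The part of these cells in the chemokine results was not tested.

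From array to array within the groups, the genes that rose in both treatments varied with markers of leukocytes, among them those of T and natural killer cells. The deviation of each array from its group mean was used, over 78 arrays and 90 relations of 10 chemokine genes with 9 marker lists, of which 39 passed by both Pearson and Spearman. The 10 genes were chosen after the data were seen: the 5 that rose in both treatments and 5 of wide spread described below. Adjusted p values cover these 90 relations only. The other chemokine genes, Ccr4 among them, and all other probe sets were not set against the marker levels, so the background share is not known. Ccl5 correlated with the mean T and natural killer cell marker level at Pearson r = 0.843 and Spearman rho = 0.798 (permutation p = 1e-05 for both, the smallest the resamples can give, adjusted p = 4.74e-05 and 5.29e-05), and r was 0.808 without the 2 arrays farthest from the median. Within the 4 groups its r lay between 0.793 and 0.933. For Cx3cr1, Xcl1, Ccr2 and Ccl4 the r with the same markers was 0.695, 0.610, 0.568 and 0.540, each at the same adjusted p for r. Within groups the r of Ccr2 ran from 0.227 in DBCP rats after recovery to 0.908 in corn oil rats after recovery. Markers of some other cells gave r above 0 as well. With the markers of all leukocytes r was 0.750 for Ccl5, 0.689 for Cx3cr1, 0.645 for Ccr2, 0.541 for Xcl1 and 0.474 for Ccl4. With the macrophage and dendritic cell markers r was 0.511 for Ccr2, 0.420 for Ccl5, 0.280 for Cx3cr1 and 0.279 for Xcl1, which passed, and 0.235 for Ccl4, which did not. Under quantile normalization Cx3cr1 and Xcl1 no longer passed by r with these markers (0.255 and 0.223, permutation test adjusted p = 0.0585 and 0.0928). In DBCP rats after recovery, where Ccr2 had its lowest r with the lymphocyte markers, its r with the macrophage and dendritic cell markers was 0.773. With the 2 erythrocyte markers measured of 6 listed, r lay between 0.344 and 0.443 for the 5 genes. With sperm markers the r of these 5 genes lay between -0.002 and 0.254. With the neutrophil markers it lay between 0.172 and 0.316, and only Xcl1, at 0.316, passed by both tests. With the epididymal principal cell markers it lay between -0.2855 and 0.044, and only Ccl4, at -0.2855, passed by both.

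The start regions of the genes that rose in both treatments are shown because the genes moved together. Each line gives the 250 bases before the annotated start, from RefSeq on build GRCr8, 5′ to 3′ on the strand of the gene. The capitals mark matches, on either strand, to the motifs searched: the TATA box (TATAAA), NF-kB by its consensus, the interferon-stimulated response element (GAAA, then 2 bases of any kind, then GAAA), AP-1 (TGANTCA), Runx (TGTGGT) and the Ets core (GGAAGT). Of the 50 genes 39 had a start region in the table, and Ccl4, Ccl5 and Ccr4 are named only. Cx3cr1 lies at chr8:128677067-128677316 on the minus strand, Xcl1 at chr13:79785441-79785690 on the minus strand and Ccr2 at chr8:132611953-132612202 on the plus strand.
Cx3cr1: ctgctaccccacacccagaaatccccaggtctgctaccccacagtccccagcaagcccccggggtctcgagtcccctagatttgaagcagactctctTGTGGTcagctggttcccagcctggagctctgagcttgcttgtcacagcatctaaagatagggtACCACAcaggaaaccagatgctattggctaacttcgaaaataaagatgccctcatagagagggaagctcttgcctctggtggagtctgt
Xcl1: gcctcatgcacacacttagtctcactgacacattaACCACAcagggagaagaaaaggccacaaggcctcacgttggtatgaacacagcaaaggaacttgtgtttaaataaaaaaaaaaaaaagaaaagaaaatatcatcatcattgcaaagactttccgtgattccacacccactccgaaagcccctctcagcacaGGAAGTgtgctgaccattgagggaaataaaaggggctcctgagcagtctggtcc
Ccr2: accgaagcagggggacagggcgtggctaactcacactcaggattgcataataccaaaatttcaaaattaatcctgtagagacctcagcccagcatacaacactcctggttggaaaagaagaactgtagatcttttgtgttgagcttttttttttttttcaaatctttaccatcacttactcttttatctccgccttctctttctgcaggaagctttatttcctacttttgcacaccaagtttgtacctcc
The Runx motif, which marks binding of factors active in lymphocytes and myeloid cells, matched on the strand of the gene at bases 153 to 148 before the start of Cx3cr1 and on the other strand at bases 89 to 84. In Xcl1 it matched on the other strand at bases 215 to 210, and the Ets core matched at bases 54 to 49. None of the 6 motifs matched in the window of Ccr2. A Runx match stood in 14.1% of 27457 start regions of this length and in 7 of the 39 chemokine genes, and an Ets core match in 19.5% and in 17 of 39. A match is a description of the letters and not a measured site.

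DBCP was compared with corn oil at each collection time. When exposure ended none of the 50 genes passed in either direction by limma, as with 0% of all probe sets, and the lowest adjusted p among the 50 was 0.246. At an unadjusted p under 0.05, 5 were lower and 0 higher, against 4.68% and 6.91% of all probe sets. Of the 50 differences, 41 lay below 0, with a median of -0.065 against -0.023 over all probe sets, of which 62.0% lay below 0. Under quantile normalization 43 lay below 0 and after centring 38. The median was -0.028 without the 6 arrays of low weight, with 40 below 0.

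The 5 genes of smallest p at the end of exposure were all lower with DBCP. Ccl24 (eotaxin-2), a macrophage product that attracts eosinophils through Ccr3, had the largest difference of the 50. Its lowest, median and highest values were 7.06, 8.03 and 9.94 with corn oil and 6.73, 7.59 and 8.83 with DBCP. These ranges overlapped over most of their width, and the difference was -0.46 ± 0.18 (limma adjusted p = 0.296), with 15 of 20 DBCP arrays below the corn oil mean. Cxcl1, a neutrophil attractant, differed by -0.12 ± 0.05 (limma adjusted p = 0.246), with 18 of 20 DBCP arrays below the corn oil mean. Ccr1, a receptor of monocytes and neutrophils, differed by -0.15 ± 0.06 (limma adjusted p = 0.278), Ccl22 by -0.12 ± 0.05 (limma adjusted p = 0.342) and Cxcl13 by -0.17 ± 0.08 (limma adjusted p = 0.379).

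By role, the differences at the end of exposure lay below 0 for 10 of 10 inflammatory CC ligands, 7 of 8 homeostatic CC ligands, 4 of 4 neutrophil-attracting ligands, 3 of 3 interferon-induced ligands and 7 of 8 CC receptors. They lay below 0 for 4 of 7 other ligands, 5 of 8 other receptors and 1 of 2 genes outside the role lists. Over all probe sets 62% lay below 0. After centring the counts of the roles named first were 9 of 10, 5 of 8, 4 of 4, 3 of 3 and 7 of 8, and without the arrays of low weight 10 of 10, 6 of 8, 3 of 4, 3 of 3 and 7 of 8. Other ligands then had 4 of 7 and 5 of 7 below 0, and other receptors 5 of 8 in both settings. Of all probe sets 54% and 53.7% lay below 0 in these settings. The macrophage and dendritic cell markers also lay below 0, 11 of 11 with a median of -0.18, and none passed by limma. Of these markers 8 were lower at an unadjusted p under 0.05, against 4.68% of all probe sets. Their level ran from 7.61 to 8.59 with corn oil and from 7.53 to 8.14 with DBCP. The sperm markers lay above 0, 12 of 12 with a median of 0.35, none passing by limma. Of them 9 were higher at an unadjusted p under 0.05, against 6.91% of all probe sets. Other lists also had most markers below 0: 6 of 8 of all leukocytes, 9 of 12 of T and natural killer cells and 5 of 7 of neutrophils. The same held for 6 of 8 of epididymal principal cells, 8 of 10 of stroma and endothelium and both measured for B cells and for erythrocytes. Of these lists only that of erythrocytes had a gene lower at an unadjusted p under 0.05. The part of any of these cells in the chemokine values was not tested.

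After recovery the DBCP rats again had no gene of the 50 past the threshold, with 0% of all probe sets called, and 3 lower and 0 higher at an unadjusted p under 0.05, against 1.33% and 2.38% of all probe sets. With the values as deposited, 25 differences lay above and 25 below 0, with a median of 0.0046 against 0.012 over all probe sets, of which 57.9% lay above 0. Without the 6 arrays of low weight 32 lay above and 18 below 0, with 39.4% of all probe sets below 0. There 8 of 8 homeostatic ligands, 7 of 8 CC receptors, 3 of 3 interferon-induced ligands and 5 of 8 other receptors lay above 0. Also above 0 were 4 of 10 inflammatory CC ligands, 2 of 4 neutrophil-attracting ligands, 2 of 7 other ligands and 1 of 2 genes outside the role lists. With array weights 30 lay above and 20 below 0, with 40.8% of all probe sets below 0. Ccl24 was again the most different, at -0.36 ± 0.19 (limma adjusted p = 0.983). Ccl3 differed by -0.22 ± 0.10, Cx3cr1 by -0.16 ± 0.07, Ccl5 by -0.15 ± 0.08 and Cxcl12, the stromal ligand of Cxcr4, by -0.12 ± 0.05, each at the same limma adjusted p. Several marker lists lay below 0 in the same comparison, with none of their genes passing by limma. Of the markers of all leukocytes 8 of 8 lay below 0, with a median of -0.17, and of the macrophage and dendritic cell markers 10 of 11, with a median of -0.15. Of the 12 T and natural killer cell markers 7 lay below 0, 3 of them at an unadjusted p under 0.05. Both erythrocyte markers were lower at an unadjusted p under 0.05, with a median of -0.47, and their mean level ran from 9.48 to 10.95 with corn oil and from 9.37 to 10.82 with DBCP. The part of these cells in the chemokine values was not tested.

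The change in the DBCP difference between the collection times did not pass for any of the 50 genes, with 0% of all probe sets called and a lowest adjusted p of 0.454. At an unadjusted p under 0.05, 5 were higher and 0 lower, against 5.97% and 4.88% of all probe sets. After centring 1 was higher and 1 lower at that level, and under quantile normalization, as without the arrays of low weight, 2 were higher and 1 lower. The 5 of smallest p were Cxcl13 at 0.28 ± 0.11 and Ccl22 at 0.17 ± 0.07 (limma adjusted p = 0.454 for both), and Ccl12 at 0.21 ± 0.10, Ccl7 at 0.19 ± 0.09 and Cxcl11 at 0.16 ± 0.08 (limma adjusted p = 0.455 for each). Genes that passed over time in 1 treatment alone were therefore not shown to differ between the treatments.

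**Figure D3:**
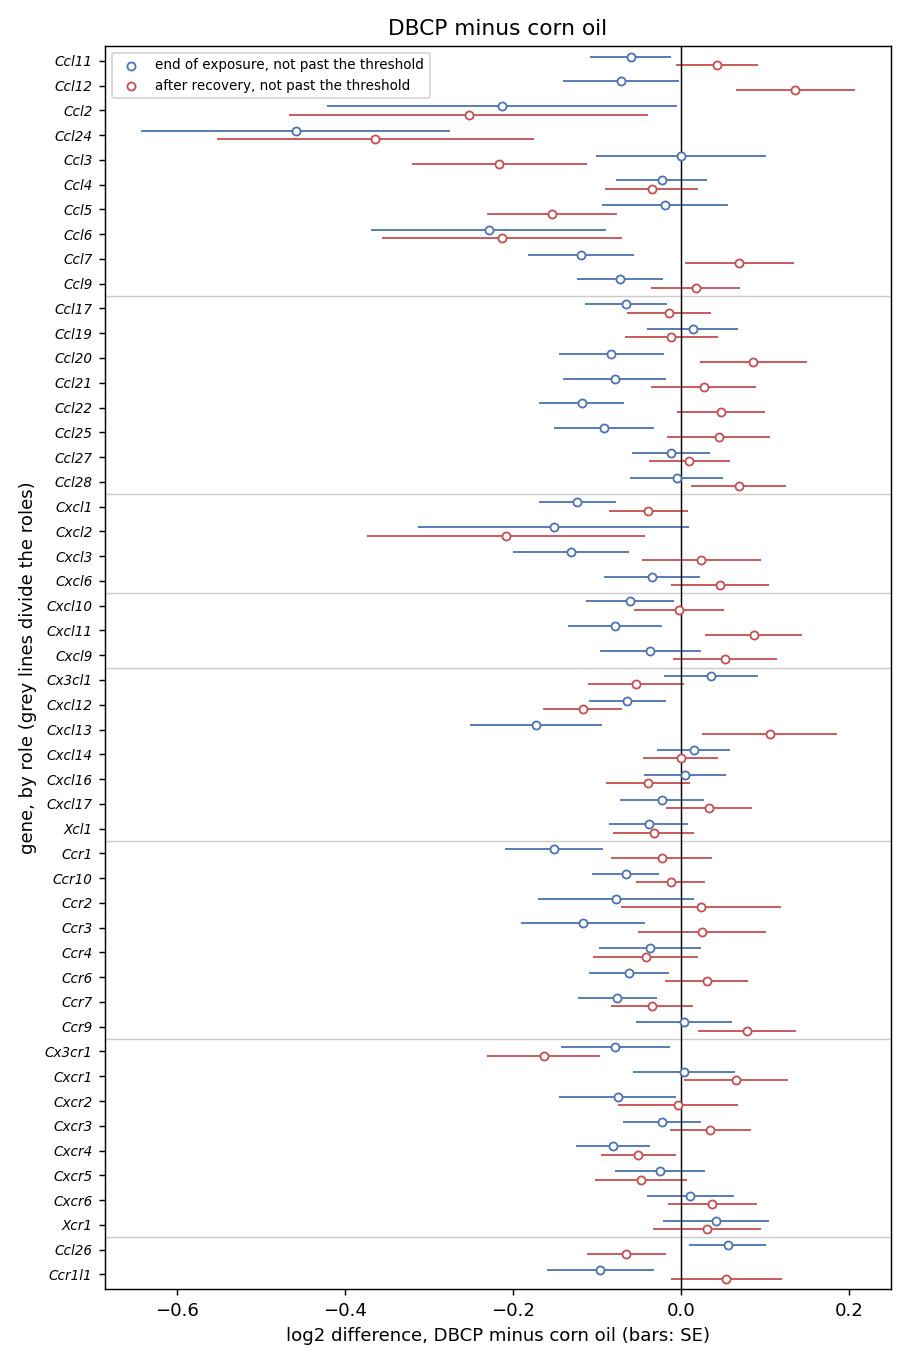
Difference in log2 value between DBCP and corn oil for each of the 50 genes (x axis, bars are the SE of the limma fit), at the end of exposure in blue and after recovery in red, with genes ordered by role on the y axis. No point is filled, since none passed; 41 of 50 lie below 0 at the end of exposure and 25 of 50 after recovery, and Ccl24 is lowest at both times.

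Another set of genes was singled out after its values were seen, as those of the widest spread between arrays within the groups. They are Ccl2 (MCP-1), the main attractant of monocytes, Ccl24, Cxcl2, a neutrophil attractant made early by activated macrophages, Ccl6, a rodent macrophage ligand, and Ccl3 (MIP-1 alpha), a ligand of Ccr1. Ccl2 had lowest, median and highest values of 8.16, 8.99 and 9.92 with corn oil and 7.91, 8.71 and 10.18 with DBCP at the end of exposure, and of 8.09, 8.98 and 10.48 and 8.01, 8.62 and 11.46 after recovery. Each group spans much of the range of the others, and the within-group SD ran from 0.53 to 0.83.

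Ccl24 spread from 6.90 to 9.17 with corn oil after recovery and from 6.89 to 8.92 with DBCP after recovery, with an SD of 0.53 to 0.69 over the 4 groups. Cxcl2 spread from 6.51 to 7.86 with corn oil and from 6.35 to 8.22 with DBCP at the end of exposure, and from 6.19 to 8.41 and from 5.92 to 8.35 after recovery. Ccl6 ran from 6.28 to 8.18 and from 6.21 to 7.47 at the end, and from 6.56 to 8.11 and from 6.39 to 8.72 after recovery. Ccl3 ran from 7.17 to 8.06 and from 6.79 to 8.51 at the end, and from 6.99 to 8.52 and from 7.21 to 8.28 after recovery. None of the 5 genes passed in any of the 5 comparisons.

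**Figure D4:**
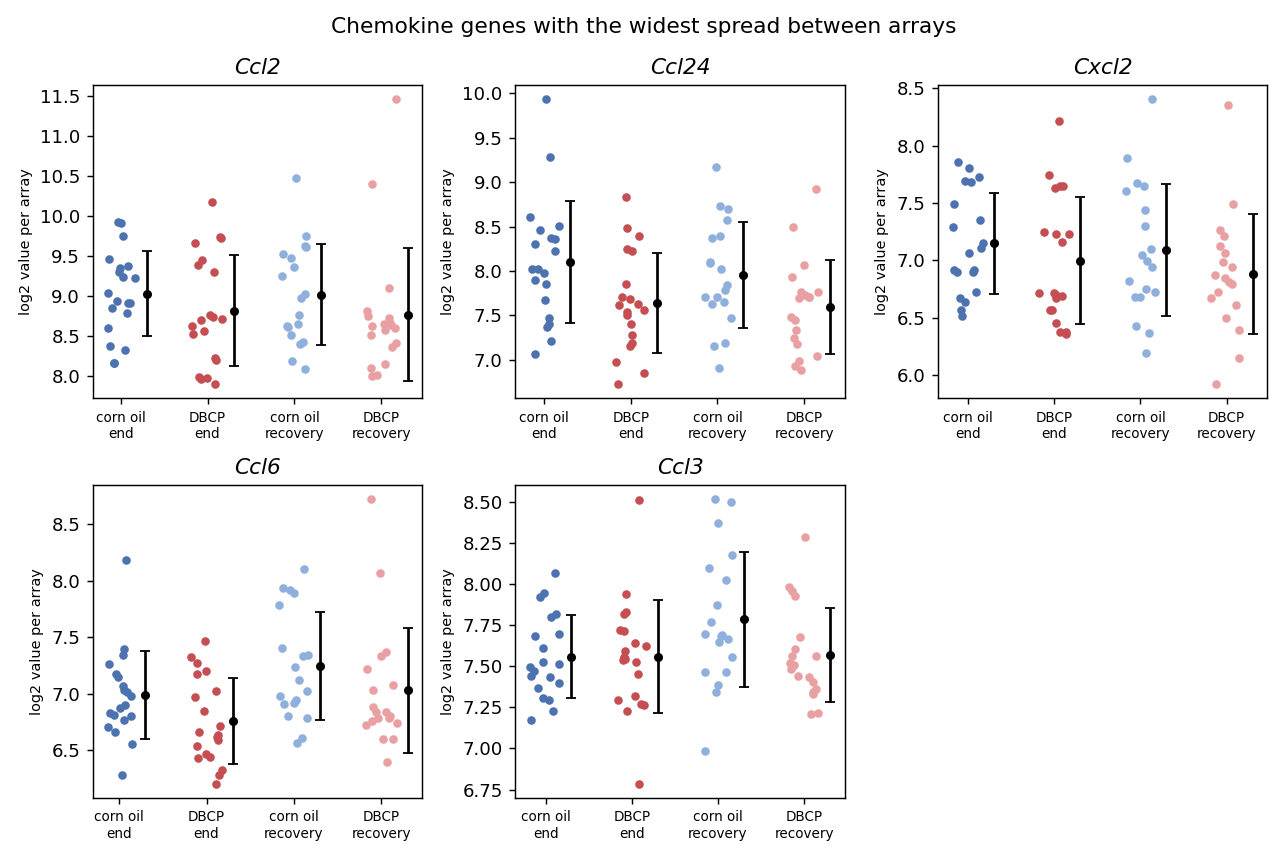
Log2 values (y axis) of the 5 genes with the widest spread between arrays, 1 point per array and 4 groups on the x axis, with the mean and SD in black. The groups overlap over most of their range in each panel, and the highest array for Ccl2, at 11.46, is of a DBCP rat after recovery.

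The same arrays were high and low for several of these genes. DBCP replicate 16 at the end of exposure had the highest value of its group for all 5 genes. Corn oil replicate 18 after recovery had the highest value of its group for Ccl2, Ccl24, Cxcl2 and Ccl6, and corn oil replicate 1 after recovery had the lowest for the same 4. DBCP replicate 10 after recovery was highest for Ccl2 and Ccl6 and also for Ccr2 and Cxcl13, and DBCP replicate 19 after recovery was highest for Ccl24, Cxcl2 and Ccl3.

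Deviations from the group means were correlated for all 1225 pairs of the 50 genes, and the pairs of highest r lay among these 5 genes. The median r over all pairs was 0.094, and 270 pairs passed by both r and rho, 226 of them positive. The highest were Ccl24 with Cxcl2, at r = 0.888 and rho = 0.900, Ccl2 with Cxcl2 at r = 0.868 and Ccl2 with Ccl24 at r = 0.838 (permutation p = 1e-05, the smallest the resamples can give, adjusted p = 2.40e-04 for each). Ccl24 and Cxcl2 had r of 0.847, 0.919, 0.930 and 0.922 within the 4 groups and 0.897 without the 2 arrays farthest from the median. Of the 10 pairs of highest r, 9 were among the 5 genes, with r from 0.700 to 0.888, and each of the 9 kept an r of at least 0.687 under quantile normalization, centring and without the arrays of low weight. The other was Ccl20 with Cxcl3, at r = 0.692, which was 0.467 under quantile normalization. These correlations of all pairs were added after the data were seen. Pairs were ranked on these same arrays, so the order is a description.

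Among the marker lists, these 5 genes had their highest r with the macrophage and dendritic cell markers, and some other lists passed as well. The r with the mean level of the 11 macrophage and dendritic cell markers was 0.898 for Ccl6, 0.829 for Ccl24, 0.795 for Ccl2, 0.784 for Ccl3 and 0.705 for Cxcl2 (permutation p with an adjusted value of 4.74e-05 for each). The rho was 0.839, 0.796, 0.736, 0.803 and 0.679 in the same order. With the T and natural killer cell markers, r was 0.572 for Ccl3 and 0.325 for Ccl6, which passed, and 0.142, 0.133 and 0.098 for Ccl24, Ccl2 and Cxcl2, which did not. With the markers of all leukocytes, r was 0.690 for Ccl3, 0.571 for Ccl6, 0.358 for Ccl2 and 0.333 for Ccl24, which passed by both tests. Cxcl2, at 0.265, did not. With the stroma and endothelium markers, r was 0.366 for Ccl24, 0.359 for Cxcl2, 0.331 for Ccl2 and 0.329 for Ccl6, which passed, and 0.205 for Ccl3, which did not. With the erythrocyte markers, r was 0.494 for Ccl3, 0.439 for Ccl6 and 0.265 for Ccl24, which passed. With the neutrophil markers r lay between 0.099 and 0.301. With the sperm markers r lay between -0.300 and -0.011.

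**Figure D5:**
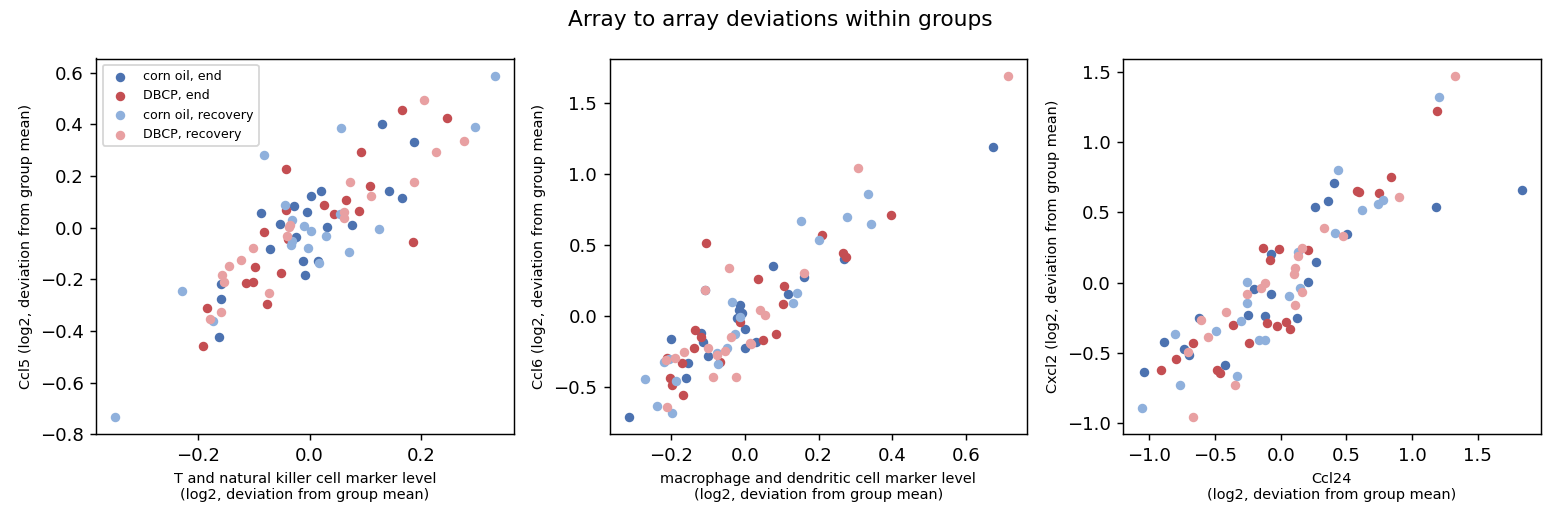
Deviation of each of the 78 arrays from its group mean, in log2 units on both axes, coloured by group. The panels show Ccl5 against the mean of the T and natural killer cell markers (r = 0.843), Ccl6 against the mean of the macrophage and dendritic cell markers (r = 0.898) and Cxcl2 against Ccl24 (r = 0.888), and each shows a rising band that holds all 4 groups.

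The start regions of Ccl24, Cxcl2 and Ccl6 are shown in the same way because these genes varied together, and those of Ccl2 and Ccl3 are named only. Ccl24 lies at chr12:26737173-26737422 on the plus strand, Cxcl2 at chr14:17467256-17467505 on the minus strand and Ccl6 at chr10:68883367-68883616 on the minus strand.
Ccl24: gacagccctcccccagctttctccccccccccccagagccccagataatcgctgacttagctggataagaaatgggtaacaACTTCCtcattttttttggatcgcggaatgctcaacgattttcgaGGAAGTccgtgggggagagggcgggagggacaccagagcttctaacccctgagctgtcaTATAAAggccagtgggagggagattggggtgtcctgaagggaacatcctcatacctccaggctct
Cxcl2: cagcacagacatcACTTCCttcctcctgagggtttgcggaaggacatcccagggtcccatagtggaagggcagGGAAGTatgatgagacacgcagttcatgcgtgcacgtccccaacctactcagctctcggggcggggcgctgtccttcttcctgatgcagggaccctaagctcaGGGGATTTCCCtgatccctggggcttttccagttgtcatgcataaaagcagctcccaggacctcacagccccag
Ccl6: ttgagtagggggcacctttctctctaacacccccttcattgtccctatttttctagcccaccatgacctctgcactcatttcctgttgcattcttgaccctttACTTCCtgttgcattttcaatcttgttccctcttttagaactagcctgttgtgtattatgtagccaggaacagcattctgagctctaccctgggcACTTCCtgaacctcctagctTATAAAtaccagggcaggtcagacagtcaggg
The Ets core matched in all 3, at bases 124 to 119 and, on the other strand, 169 to 164 in Ccl24, at bases 177 to 172 and, on the other strand, 237 to 232 in Cxcl2, and on the other strand at bases 147 to 142 and 52 to 47 in Ccl6. The TATA box matched at bases 65 to 60 of Ccl24 and 32 to 27 of Ccl6, and stood in 13.1% of all start regions and in 11 of the 39 chemokine genes. The NF-kB consensus, which marks genes induced in inflammation, matched in Cxcl2 between bases 74 and 64, where overlapping matches share most letters. It stood in 6.41% of all start regions and in 9 of 39.

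Ligands were also set beside their own receptors. Of 20 ligand and receptor pairs listed, 18 had both genes among the 50, with a median r of 0.222 and 14 above 0. Over all 1225 pairs of the 50 genes the median r was 0.094 and 64.7% lay above 0, and 22.0% passed by both r and rho when adjusted over all of them. Of the 18, adjusted over the 18, 5 passed by both: Ccl20 with Ccr6 at r = 0.458 and rho = 0.457, Ccl28 with Ccr10 at 0.417 and 0.383, Cxcl10 with Cxcr3 at 0.323 and 0.310, Ccl25 with Ccr9 at 0.378 and 0.388, and Cxcl9 with Cxcr3 at -0.380 and -0.381 (permutation test, adjusted p from 9.00e-04 to 0.0183 for r and from 3.60e-04 to 0.0272 for rho). Ccl2 with Ccr2 had r = 0.267 and rho = 0.207, and passed by r alone. By r, 10 pairs passed with the values as deposited, 2 under quantile normalization, 0 after centring and 2 without the arrays of low weight. Some values stayed about as large: Ccl2 with Ccr2, which passed in none of these settings, had r of 0.258, 0.265 and 0.281, and Cxcl9 with Cxcr3, which was lost by r after centring alone, had -0.359, -0.332 and -0.368. Others did not, such as Ccl20 with Ccr6 at 0.097 under quantile normalization.

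Other genes of the pathway were listed beside the chemokines, and 43 of 55 were measured: 31 of 38 signalling and migration genes, which act inside the cell, 7 of 11 ligands and receptors outside the symbol rule and 5 of 6 genes that trim or release chemokines. With corn oil 25 rose and 4 fell after recovery, and with DBCP 15 rose and 2 fell. Over all probe sets, 11.5% were higher and 12.8% lower with corn oil, and 7.28% and 6.19% with DBCP. Of the 31 signalling and migration genes 22 rose with corn oil, with a median difference of 0.29, and 12 rose and 1 fell with DBCP, with a median of 0.16. The 6 of smallest p with corn oil were Rgs2 at 0.45, Dock2 at 0.36, Rac1 at 0.44, Rgs18 at 0.44, Gnai2 at 0.52 and Was at 0.34 (limma adjusted p from 2.51e-05 to 6.58e-05). Gnai2 is the G protein subunit that chemokine receptors couple to, Dock2 and Rac1 drive the forward movement of leukocytes, Was shapes their actin, and Rgs2 and Rgs18 shorten G protein signals.

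With DBCP the 6 of smallest p were Rgs18 at 0.43, Dock2 at 0.33, Elmo1, the partner of Dock2, at 0.22, Rgs2 at 0.33, Rgs1 at 0.43 and Prkcd, a protein kinase C, at -0.44 (limma adjusted p from 5.44e-05 to 0.00901). Of the 7 chemokine and atypical receptor genes outside the symbol rule, Ackr2, a scavenger of inflammatory CC ligands, fell in both treatments, by 0.21 and 0.16, and Ccrl2 and Ppbp fell with corn oil, by 0.17 and 0.18. Of the 5 genes that trim or release chemokines, Mmp9, Dpp4 and Adam17 rose in both, and Sdc4, a cell surface proteoglycan that binds chemokines, fell by 0.17 with corn oil (limma adjusted p = 0.00788). Several of these genes are expressed in all leukocytes, whose markers rose in the same comparisons, and the part of that in these counts was not tested. In the comparisons of DBCP with corn oil none of the 43 passed by limma. At an unadjusted p under 0.05, 3 were higher and 5 lower at the end of exposure, against 6.91% and 4.68% of all probe sets. After recovery 0 were higher and 7 lower at that level, against 2.38% and 1.33%.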

How the data were processed

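RNA of 78 sperm samples was measured on a whole-transcript rat array with biotin label. The values are log2 intensities of 29214 probe sets as deposited by the authors. Per the submitters' processing notes limma was used; the sources used here do not state how background, scaling and probe set summaries were handled. Gene symbols came from the platform annotation: 15310 probe sets had 1 symbol, 323 several and 13581 none. The members, the gene lists and the comparisons were chosen with earlier results of these data known.

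A model of 4 group means was fitted to all arrays and all probe sets with lmFit and eBayes (limma 3.58.1, R 4.3.3), with 5 contrasts, Benjamini-Hochberg adjustment over all probe sets and a threshold of 0.05. The median SE of a difference was 0.06 for a pair of groups and 0.086 for the interaction. Array data carry no read depth; the number of arrays limits the precision. Tested on simulated data, the fit recovered 73 of 100 probe sets changed by 0.3 and 95 of 100 changed by 0.6, with 6 false calls, for DBCP against corn oil at the end, and 66 and 97 of 100, with 8 false calls, in that of recovery with the end of exposure in corn oil rats. The simulation drew independent noise for each probe set and changed only these probe sets. It held no deviations shared across an array, so its rates need not hold for the real arrays. Correlations used deviations from group means and a two-sided permutation test with 100000 resamples within groups.

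Differences of single chemokine genes were given by rule, for those that passed in a comparison, or the 5 of smallest p where none passed. Of the other pathway genes, the 6 of smallest p were named where any passed. Further pathway genes that passed, and single markers such as Cd3d, Prf1 and Klrd1, were named outside this rule. Alternatives covered the scaling, the filter on low values, array weights, subsets of replicate numbers, a replicate block and each array left out in turn.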

Additional observations from a re-analysis of the deposited data

How the results depend on the processing

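The counts of chemokine genes past the threshold in the comparisons of DBCP with corn oil and in the interaction were 0 under each alternative tried, and 0 in each of the 78 fits without 1 array. Without 1 array, the recovery comparison with corn oil called 6 to 8 higher and 5 to 8 lower, with 5 lower without corn oil replicate 11 after recovery, and with DBCP 8 to 11 higher and 2 to 4 lower, with 4 lower without DBCP replicate 13 after recovery. In these fits Ccl5, Ccr2, Xcl1, Cx3cr1, Ccl4 and Ccr4 passed in both treatments each time. With corn oil, Ccl9 was lost without replicate 3, 6, 7, 8, 13 or 20 at the end or 7, 11 or 20 after recovery (-0.12 to -0.14, limma adjusted p up to 0.0785), Ccl27 without replicate 4, 7, 9 or 13 at the end or 1, 4 or 11 after recovery (-0.11 to -0.13, up to 0.0729), Cxcr1 without replicate 3, 6, 12 or 14 at the end or 1, 4 or 7 after recovery (-0.15 to -0.16, up to 0.0569) and Ccr10 without replicate 11 after recovery (-0.11, 0.0515). With DBCP, Ccl12 was lost without replicate 1, 2 or 13 at the end or 5 or 14 after recovery (0.18 to 0.20, up to 0.0717).

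After centring, 3 genes fell with corn oil in place of 8, and over all probe sets 2218 in place of 3738. With the filter on probe sets brighter than the median, which tests fewer, 1 fell with DBCP in place of 2. Replicate numbers 1 to 10 alone gave 3 lower with corn oil and 5 higher and 0 lower with DBCP, and numbers 11 to 20 alone gave 3 higher and 0 lower in each treatment, with 289 higher and 96 lower of all probe sets with corn oil and 120 and 385 with DBCP. Ccl5, Ccr2 and Xcl1 passed in both subsets and both treatments. Cx3cr1 passed in numbers 1 to 10 and not in numbers 11 to 20 (0.27 with corn oil and 0.25 with DBCP, limma adjusted p = 0.104 and 0.183). Ccl4 passed in neither subset of either treatment (0.15 to 0.19, limma adjusted p from 0.103 to 0.384). With corn oil Ccr4 passed in numbers 1 to 10 and not in numbers 11 to 20 (-0.22, limma adjusted p = 0.165). With DBCP it passed in neither subset (-0.22 and -0.26, limma adjusted p = 0.106 and 0.125). Without the 6 arrays of low weight, Ccl12, Cxcl9 and Cxcr2 were lost with DBCP. The main fit did not pair rats by replicate number. Deviations from the group means were correlated between arrays of the same number. The median r lay between -0.077 and 0.065 over the comparisons of groups, and single values ran from -0.488 to 0.568. With the replicate block, 6 rose and 6 fell with corn oil and 9 rose and 2 fell with DBCP.

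Of the ligand and receptor pairs, 10 passed by r, against 2 under quantile normalization, 0 after centring and 2 without the arrays of low weight. Signs turned for Cxcl12 with Cxcr4 without the arrays of low weight (-0.020), for Ccl22 with Ccr4 under quantile normalization (-0.02) and centring (-0.043), and for Xcl1 with Xcr1 under quantile normalization (0.063). The cause of these changes was not tested. The correlations of all pairs among the 50 genes and those with the marker lists were themselves added after the data were seen, as were their alternatives. Under quantile normalization Xcl1 no longer passed by r with the macrophage, neutrophil and erythrocyte markers. Cx3cr1 with the macrophage markers and Ccl24 with the erythrocyte markers were lost there and without the arrays of low weight. Ccl4 with the epididymal principal cell markers, where r was below 0, was lost under both of these and after centring. The limits of the values are that no detection call was given, that the sources used here do not give the normalization, and that the collection time cannot be told apart from age or processing.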
